A study of Mus musculus with 12 samples.

Results

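The genes of the red cell membrane Ank1, Sptb, Epb4.1, Epb4.2, Slc4a1, Gypc, Rhag and Rhd were followed through RNA-Seq of mouse PreMegEs, the bone marrow progenitors that can still give rise to megakaryocytes and to erythroid cells. They were chosen by their names in the count table (8 of 41128 genes), where the older symbols Epb4.1 and Epb4.2 stand for Epb41 and Epb42. All animals were C57BL/6 mice of 12 to 16 weeks. PreMegEs were sorted in 4 groups of 3 libraries, each library from cells pooled from 3 mice. The WT group came from wild type mice without a reporter. The P2- and P2+ groups came from Runx1 P1-GFP::P2-hCD4/+ mice, in which GFP marks activity of the distal promoter P1 of Runx1 and human CD4 that of the proximal promoter P2, and were sorted, within GFP-positive cells, as hCD4 negative (P2-) or hCD4 positive (P2+). The KO group came from RUNX1C knockout mice, which lack the isoform made from P1, and was not sorted on hCD4. The WT and KO groups can therefore hold cells of both P2 states. The study discusses Runx1 haploinsufficiency in the reporter mice. The P2- and P2+ groups thus differ from WT and KO in Runx1 genotype as well as in P2 state. The study's text reports RNA-Seq of WT, P2- and P2+ PreMegEs, and its pooling of mice is taken here to hold for KO too. The study asked whether the reporter of P2 separates PreMegEs that lean to one of the 2 lineages, and the genes described here belong to the erythroid end product.

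The membrane of the red cell is held up by a net of spectrin, in which spectrin chains, beta spectrin (Sptb) among them, meet at short actin filaments. The net is tied to the lipid bilayer at 2 kinds of site. At the first, ankyrin (Ank1) joins beta spectrin to the anion exchanger known as band 3 (Slc4a1), with the product of Epb4.2 and the Rh proteins (Rhag, Rhd) alongside. At the other, the product of Epb4.1 joins spectrin and actin to glycophorin C (Gypc). Rhag is needed for Rh proteins to reach the surface, and loss of ankyrin, spectrin, band 3 or the product of Epb4.2 is known from hereditary spherocytosis. Most of these proteins accumulate late, during terminal erythroid maturation, well after the PreMegE stage.

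RefSeq promoter sequences (GRCm38.p6, from 250 bases before to 50 bases after the transcription start) were found for 5 of the 8 genes, Rhag, Rhd, Sptb, Epb4.2 and Epb4.1, the last with 3 promoters. Promoters of Ank1, Slc4a1 and Gypc were not analysed here. Those of Rhag (chr17:40810899-40811198, plus strand) and Rhd (chr4:134864286-134864585, plus strand) are shown because these genes fell together in P2+ PreMegEs, that of Sptb (chr12:76710498-76710797, minus strand) because Sptb moved the other way, and that of Epb4.2 (chr2:121036828-121037127, minus strand) because it differed between KO and WT. Capitals mark every match, on either strand, to the GATA motifs AGATAA and TGATAA, the Kruppel-like motif CCNCNCCC or the Runx motif TGTGGT.
Rhag promoter: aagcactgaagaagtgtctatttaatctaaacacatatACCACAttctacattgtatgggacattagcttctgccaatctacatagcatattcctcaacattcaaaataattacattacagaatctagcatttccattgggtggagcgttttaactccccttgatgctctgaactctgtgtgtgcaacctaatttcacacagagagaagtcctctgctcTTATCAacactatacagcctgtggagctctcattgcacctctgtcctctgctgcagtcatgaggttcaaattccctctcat
Rhd promoter: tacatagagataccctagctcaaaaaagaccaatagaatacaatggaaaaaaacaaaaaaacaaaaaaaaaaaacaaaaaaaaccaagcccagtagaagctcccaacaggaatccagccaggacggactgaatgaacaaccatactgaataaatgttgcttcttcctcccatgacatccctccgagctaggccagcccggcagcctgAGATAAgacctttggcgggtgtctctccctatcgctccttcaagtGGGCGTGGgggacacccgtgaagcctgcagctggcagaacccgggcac
Epb4.2 promoter: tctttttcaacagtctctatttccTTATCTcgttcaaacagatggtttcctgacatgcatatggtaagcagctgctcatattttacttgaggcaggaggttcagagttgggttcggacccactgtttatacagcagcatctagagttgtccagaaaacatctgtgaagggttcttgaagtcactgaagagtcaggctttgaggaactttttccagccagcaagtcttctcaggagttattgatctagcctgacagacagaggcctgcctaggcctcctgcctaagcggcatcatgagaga
Sptb promoter: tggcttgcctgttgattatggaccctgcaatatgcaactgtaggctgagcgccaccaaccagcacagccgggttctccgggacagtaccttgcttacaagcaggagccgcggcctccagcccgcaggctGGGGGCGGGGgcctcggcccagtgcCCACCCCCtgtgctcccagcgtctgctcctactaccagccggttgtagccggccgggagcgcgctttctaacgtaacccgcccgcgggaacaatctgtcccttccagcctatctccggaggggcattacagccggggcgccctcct

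A GATA motif stood in the promoters of Rhag (position -31 from the start), Rhd (position -43) and Epb4.2 (position -226), and in none of those of Sptb and Epb4.1. Of all 32851 promoters of this length, 18.6% held AGATAA or TGATAA. The motif CCNCNCCC, where matches can overlap each other, was found in Rhd, in Sptb and in 2 of the 3 promoters of Epb4.1, against 49.5% of all promoters. TGTGGT was found in Rhag alone of these genes, against 16.8% of all promoters. The E-box CANNTG, which reads the same on both strands, was in 5 of the 7 promoters (72.3% of all), and the Ets core GGAA was in all 7 (96% of all). These are matches of letters, and binding was not measured here.

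The libraries held between 10726098 and 14445026 counts. Levels are given as CPM, counts scaled to library size with TMM factors over the 12 libraries, and a count of 3 corresponded to at most 0.286 CPM. Groups were compared with edgeR's quasi-likelihood test, with p adjusted over all genes tested (Benjamini-Hochberg). A gene passed the test at an adjusted p under 0.05 and is called changed where it also differed at least 2-fold. All 8 genes reached the minimum level for testing in all 6 comparisons, Rhd only through the other group wherever P2+ was compared. Replicates 2 of P2- and of P2+ stood apart from the rest: immediate early genes summed to 12086 and 8199 CPM there and to at most 1162 CPM in the other libraries. Runx1 itself was counted over both promoters, at 613 to 658 CPM in P2+, 201 to 216 CPM in P2-, 358 to 388 CPM in WT and 340 to 382 CPM in KO, so that these counts do not check the loss of RUNX1C. Whether fewer cells express a gene or each cell holds less of its RNA cannot be told apart in bulk samples. The study's methods call the libraries of a population biological replicates, and p-values measure the spread between these pools of mice.

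The 8 genes did not move as one set. Ank1, Rhag and Rhd were highest in P2- and KO, intermediate in WT and lowest in P2+ PreMegEs. Gypc and Sptb were highest in P2+, by less than 2-fold over P2- in the fit of all 6 libraries. Epb4.1 stayed within a narrow range in all libraries, and Slc4a1 and Epb4.2 varied as much between replicates of P2+ as between groups. Between P2+ and P2-, 5 of the 8 genes passed the test (3 lower, 2 higher in P2+), against 37.1% of all 12836 genes tested, and 3 of the 8 were changed, against 12.7% of all genes and 3.13% changed as lower. Without Rhd, which was testable only through P2-, 2 were changed. The libraries of P2+ and P2- did not overlap for the same 5 genes, as for 49.9% of all genes.

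**Figure D1:**
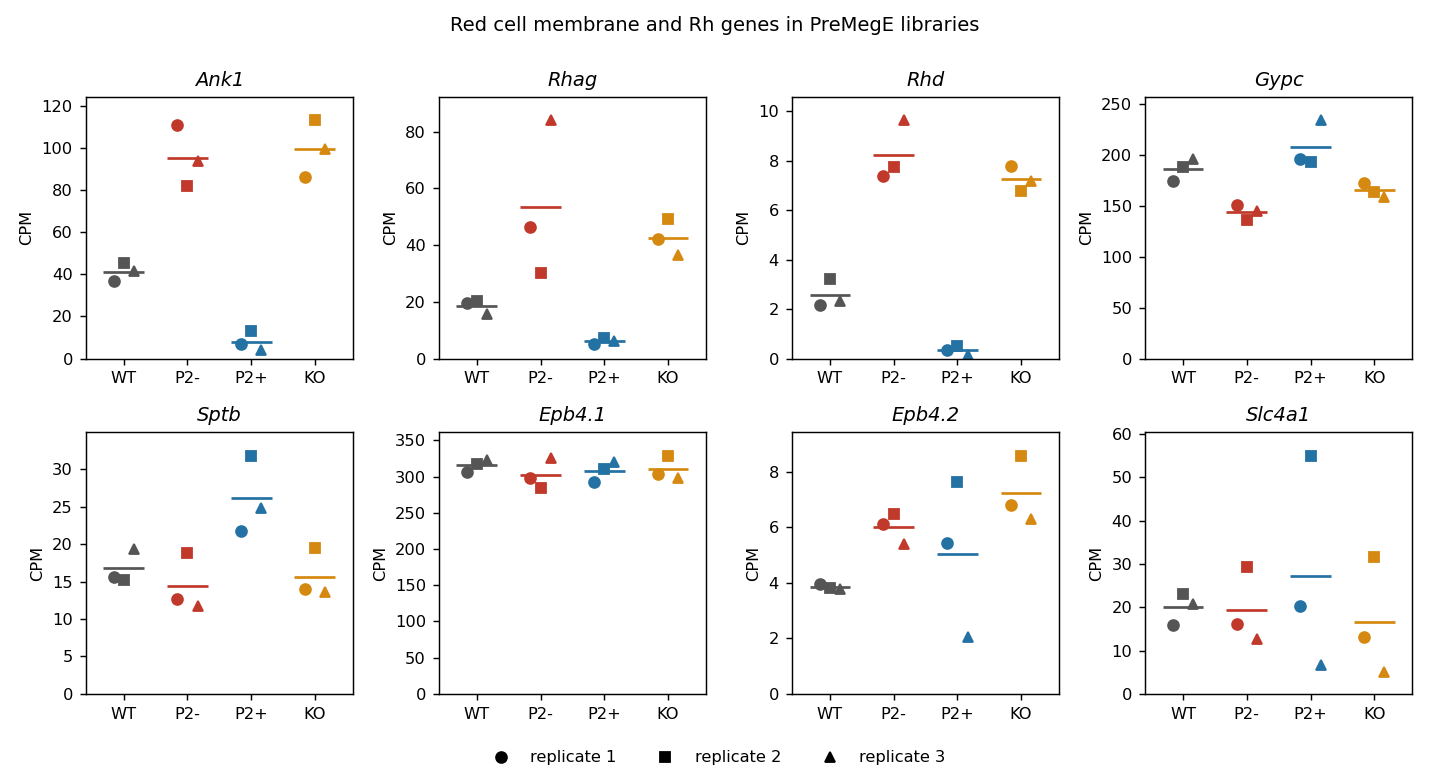
Level in CPM (y axis, linear from 0) of each of the 8 genes in the 3 libraries of WT, P2-, P2+ and KO PreMegEs, with the group mean as a bar and the replicate number as the marker shape. The P2+ libraries of Ank1, Rhag and Rhd lie below all others, those of Gypc and Sptb lie above all P2- libraries, and replicate 2 is the highest library of Slc4a1 in every group.

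Ank1 (chr8:22974844-23150497, plus strand, GRCm38) encodes the ankyrin that ties spectrin to band 3. It stood at 111, 81.8 and 93.8 CPM in P2-, at 6.87, 12.9 and 3.89 CPM in P2+, at 36.9, 45.5 and 41.4 CPM in WT and at 86.2, 113 and 99.7 CPM in KO libraries. No P2+ library reached those of another group, the WT libraries lay between, and the P2- and KO libraries overlapped. Ank1 fell 12.0-fold from P2- to P2+ (log2 fold change -3.58 ± 0.35 SE, edgeR adjusted p = 8.55e-05), and its difference by size ranked 89 among the 12836 genes. Without replicate 2 of both groups the log2 fold change was -4.24. An antisense gene, Gm15816, overlaps 862 of its 13527 exonic bases, and since the strand setting of the counting is not stated, reads of the 2 cannot be separated there.

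Rhag (chr17:40811126-40840754, plus strand) encodes the Rh-associated glycoprotein, the ammonia channel that carries the Rh complex. Its libraries held 46.5, 30.0 and 83.9 CPM in P2-, 5.02, 7.36 and 6.17 CPM in P2+, 19.6, 20.3 and 15.7 CPM in WT and 42.0, 49.3 and 36.5 CPM in KO. The P2- libraries spread over more than those of any other group, with replicate 3 the highest of all 12, yet even the lowest of them lay above the WT libraries. Rhag fell 8.59-fold from P2- to P2+ (log2 fold change -3.10 ± 0.36 SE, edgeR adjusted p = 0.00022).

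Rhd (chr4:134864536-134896172, plus strand) encodes the Rh protein of the mouse, the partner of Rhag. In P2- it was counted 93, 81 and 137 times (7.39, 7.72 and 9.62 CPM) and in P2+ 4, 7 and 2 times (0.335, 0.486 and 0.152 CPM). WT libraries held 2.15, 3.22 and 2.33 CPM and KO libraries 7.77, 6.77 and 7.19 CPM. The P2+ libraries were near the counting limit, and Rhd was testable there only because of the level in P2-, which by itself favours a difference. The fitted fold between them was 24.4 (log2 fold change -4.61 ± 0.38 SE, edgeR adjusted p = 3.54e-05), rank 26 by size.

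Markers of early erythroid cells moved with Ank1, Rhag and Rhd. The summed level of 7 such genes, among them the erythroid factor Klf1, was 2719 to 3105 CPM in P2-, 2586 to 2854 CPM in KO, 1859 to 2013 CPM in WT and 1113 to 1232 CPM in P2+, and all 7 passed the test as lower in P2+ than in P2-. Megakaryocyte markers ran the other way, with 9 genes summing to 121 to 174 CPM in P2- and 843 to 1280 CPM in P2+, and 7 of the 8 tested were higher in P2+. None of the 7 early erythroid markers was at 0 in any library. Of the 9 megakaryocyte markers, Gp6 was at 0 in 7 libraries, all 3 of P2+ among them, and Ppbp in replicate 2 of P2-. The part that the make-up of the sorted cells has in the values of the membrane genes was not tested.

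Gypc (chr18:32528322-32560034, minus strand) encodes glycophorin C, the transmembrane anchor of the Epb4.1 product, which cells outside the erythroid line also make. It stood at 151, 136 and 145 CPM in P2-, at 196, 194 and 234 CPM in P2+, at 175, 189 and 196 CPM in WT and at 173, 164 and 159 CPM in KO. All P2+ libraries were above all P2- libraries, the KO libraries lay between, and the highest WT library reached into the P2+ range. Gypc rose 1.45-fold from P2- to P2+ (log2 fold change 0.54 ± 0.09 SE, edgeR adjusted p = 0.00196), under the 2-fold limit.

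Sptb (chr12:76580488-76710547, minus strand) encodes the beta spectrin of red cells, which is also made in muscle and brain. It held 12.6, 18.8 and 11.8 CPM in P2-, 21.8, 31.8 and 24.8 CPM in P2+, 15.6, 15.3 and 19.4 CPM in WT and 14.0, 19.5 and 13.6 CPM in KO. Replicate 2 was the highest library in P2-, P2+ and KO, and the P2+ libraries lay above all 9 others. The rise from P2- to P2+ was 1.82-fold (log2 fold change 0.87 ± 0.22 SE, edgeR adjusted p = 0.0129). The log2 fold change was 0.78 without replicate 1 of P2- and 0.74 without replicate 3 of P2-, where the adjusted p of 0.0501 and 0.0526 no longer passed, and the adjusted p was 0.00106 without replicate 2 of both groups. Without replicate 2 of P2- alone the log2 fold change was 1.11 (adjusted p = 0.00214), past 2-fold.

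Since the P2+ and P2- libraries of these 5 genes did not overlap, differences between libraries of the same number had to keep one direction for each. On the log2 CPM scale, P2+ minus P2- was -3.98, -2.65 and -4.54 for Ank1, -3.17, -2.01 and -3.73 for Rhag, and -3.93, -3.61 and -4.97 for Rhd. It was 0.38, 0.51 and 0.69 for Gypc and 0.78, 0.76 and 1.06 for Sptb. For Slc4a1 it was 0.33, 0.90 and -0.92, so that the third pair went against the others.

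Epb4.1 (chr4:131923413-132075321, minus strand) encodes the protein that joins spectrin and actin at the junctions, and many splice forms of it are made outside red cells. Over the 12 libraries together it was the most evenly expressed of the 8 genes, from 284 CPM in replicate 2 of P2- to 329 CPM in replicate 2 of KO. Its coefficient of variation within groups was 2.62% to 6.81%. Lower ones were found for Gypc in P2- (5.09%) and KO (4.23%) and for Epb4.2 in WT (2.31%). No comparison passed the test. Between P2+ and P2- the log2 fold change was 0.03 with a 95% interval of -0.15 to 0.20 (edgeR adjusted p = 0.817), and between KO and WT it was -0.03 with an interval of -0.16 to 0.10 (edgeR adjusted p = 0.785). Counts over the whole gene do not separate its promoters or splice forms, so a switch between them would not show here.

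Slc4a1 (chr11:102348824-102366203, minus strand) encodes band 3. It held 16.0, 23.1 and 20.8 CPM in WT, 16.1, 29.3 and 12.6 CPM in P2-, 20.3, 54.9 and 6.63 CPM in P2+ and 13.1, 31.7 and 5.01 CPM in KO. The 3 P2+ libraries spanned the highest value of the series and one of the lowest, and all groups overlapped. Between P2+ and P2- the log2 fold change was 0.51 ± 0.62 SE with a 95% interval of -0.90 to 1.91 (edgeR adjusted p = 0.563). The sign followed single libraries: it was -0.51 without replicate 2 of P2+, 0.98 without replicate 3 of P2+ and -0.08 without replicate 2 of both groups.

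Beta globin (Hbb-bs), a transcript of maturing erythroblasts, was highest in the same library as Slc4a1 in P2-, P2+ and KO. It held 9.37, 11.4 and 11.5 CPM in WT, 7.16, 19.4 and 8.64 CPM in P2-, 7.37, 26.0 and 3.58 CPM in P2+ and 7.42, 15.9 and 1.27 CPM in KO. Alas2, the first enzyme of erythroid heme synthesis, was at most 5.56 CPM, in replicate 2 of P2+. In P2-, P2+ and KO the highest library of Slc4a1, of Hbb-bs and of Alas2 was replicate 2, and in P2+ and KO the lowest was replicate 3. S100a8, a neutrophil transcript, was also high in replicate 2 of P2- (11.5 CPM) and of P2+ (8.40 CPM), where other libraries held at most 1.80 CPM. Immediate early genes were high in the same libraries of P2- and P2+ but not in replicate 2 of KO. The alpha globin genes Hba-a1 and Hba-a2 were under 1 CPM in every library, and the 8 late erythroid markers summed to 279 to 376 CPM in P2+, 345 to 402 CPM in WT, 350 to 420 CPM in P2- and 412 to 430 CPM in KO. The sums of P2+, WT and P2- overlapped, and those of KO lay above WT and P2+. The sort left out cells bearing the erythroid surface marker TER119. The part of mature erythroid RNA in the values of Slc4a1 was not tested.

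Epb4.2 (chr2:121017891-121037072, minus strand) encodes a protein that steadies the link of band 3 and ankyrin. It was low, at 3.96, 3.82 and 3.79 CPM in WT, 6.12, 6.48 and 5.41 CPM in P2-, 5.44, 7.64 and 2.06 CPM in P2+ and 6.81, 8.57 and 6.28 CPM in KO. The KO and P2- libraries lay above all WT libraries (log2 fold change of P2- over WT 0.65, edgeR adjusted p = 0.0815), and the P2+ libraries spread around the WT level. Between P2+ and P2- the log2 fold change was -0.24 with a 95% interval of -1.15 to 0.67 (edgeR adjusted p = 0.677). As with Slc4a1, replicate 2 was the highest library in P2-, P2+ and KO.

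**Figure D2:**
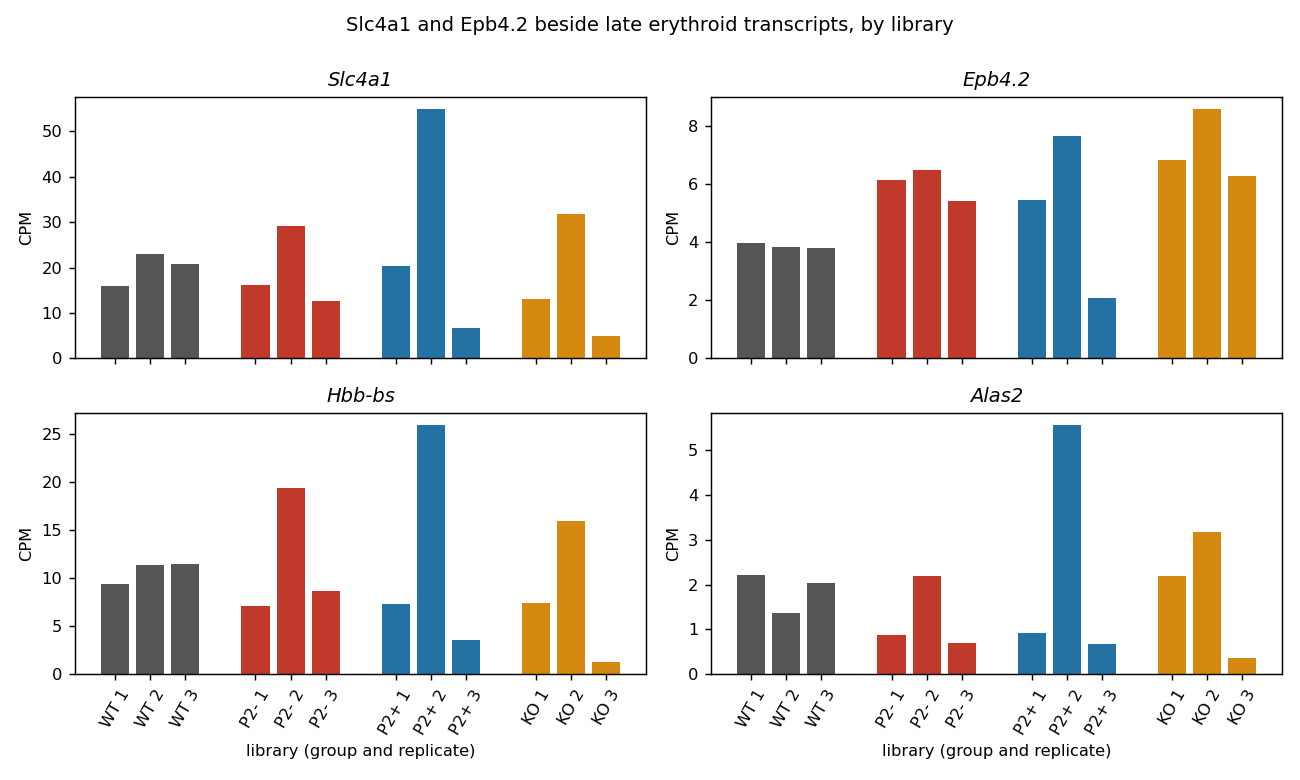
Level in CPM (y axis, linear from 0) of Slc4a1 and Epb4.2 and of the late erythroid transcripts Hbb-bs and Alas2 in each of the 12 libraries, coloured by group. Replicate 2 of P2+ is the highest library of Slc4a1 (54.9 CPM), Hbb-bs (26.0 CPM) and Alas2 (5.56 CPM), and replicate 2 also leads in P2- and KO.

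The P2- and P2+ PreMegEs were each set against WT PreMegEs, which were not divided by reporter and carry no reporter allele. This difference in Runx1 genotype cannot be told apart from P2 state here. The 2 comparisons share the WT libraries. Ank1, Rhag and Rhd differed from WT in both, in opposite directions. In P2- all 3 were changed as higher, 3 of the 8 genes against 4.68% of all 12767 genes changed in either direction and 0.572% changed as higher, and 4 of the 8 passed the test, against 16.5%. Ank1 rose 2.33-fold (log2 fold change 1.22 ± 0.12 SE, edgeR adjusted p = 0.000133), Rhag 2.92-fold (1.54 ± 0.30, adjusted p = 0.00675) and Rhd 3.25-fold (1.70, adjusted p = 0.00171). Gypc was lower in P2- (log2 fold change -0.36, edgeR adjusted p = 0.0107), under 2-fold, and Sptb, Epb4.1, Epb4.2 and Slc4a1 did not pass. Between the same libraries 6 of 7 early erythroid markers passed as higher in P2-, 7 of the 8 megakaryocyte markers tested were changed as lower (121 to 174 CPM summed, against 550.5 to 638 CPM in WT), and 4 of the 7 neutrophil and monocyte markers tested passed as lower (26.3 to 60.8 CPM, against 85.5 to 208 CPM), as did 2 of the 4 lymphoid markers tested (8.77 to 11.3 CPM, against 18.7 to 30.0 CPM). Their part in the values was not tested.

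In P2+ the same 3 genes were changed as lower than in WT, against 3.84% of all 12941 genes changed in either direction and 1.68% changed as lower, and 4 of the 8 passed the test, against 16.5%. Rhd was testable only through WT, and 2 were changed without it. Ank1 fell 5.16-fold (log2 fold change -2.37, edgeR adjusted p = 0.000747), Rhag 2.97-fold (-1.57, adjusted p = 0.000478) and the fitted fold of Rhd, near the counting limit in P2+, was 7.59 (-2.92, adjusted p = 0.0031). Sptb was higher in P2+ (log2 fold change 0.65 ± 0.17 SE, edgeR adjusted p = 0.0266), a call lost without replicate 1 of WT (0.60, adjusted p = 0.0981), replicate 2 of WT (0.59, adjusted p = 0.104) or replicate 2 of P2+ (0.48, adjusted p = 0.0556). The log2 fold change of Gypc was 0.16 with a 95% interval of -0.04 to 0.37 (edgeR adjusted p = 0.273). On the linear CPM scale the WT mean lay 38.1% of the way from the P2+ mean to the P2- mean for Ank1, 26.2% for Rhag, 28.3% for Rhd and 33.6% for Gypc, and 79.9% for Sptb. Between the same libraries 5 of 7 early erythroid markers passed as lower in P2+ (summed 1113 to 1232 CPM, against 1859 to 2013 CPM in WT), and of the 8 megakaryocyte markers tested 4 passed as higher and 1 as lower (843 to 1280 CPM summed, against 550.5 to 638 CPM). Of the 3 mast cell and basophil markers tested, 2 were changed as higher (84.3 to 137 CPM, against 28.0 to 48.0 CPM), and 1 of the 6 neutrophil and monocyte markers tested passed as higher. Their part in the values was not tested.

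KO PreMegEs, which lack RUNX1C, were compared with WT to ask what its loss changes in the progenitors. Ank1, Rhag and Rhd were each more than 2-fold higher in KO. The libraries of KO and WT did not overlap for these 3, for Epb4.2 (higher in KO) and for Gypc (lower in KO), 5 of the 8 genes, as for 31.6% of all genes. Those changed were 3 of the 8 genes, against 3.41% of all 12784 genes changed and 0.743% changed as higher, and 4 of the 8 passed the test, against 14.9%. Ank1 rose 2.41-fold (log2 fold change 1.27 ± 0.10 SE, edgeR adjusted p = 1.73e-07), Rhag 2.29-fold (1.19 ± 0.13, adjusted p = 6.34e-06) and Rhd 2.82-fold (1.49, adjusted p = 0.00086). Epb4.2 was also higher (log2 fold change 0.90 ± 0.24 SE, edgeR adjusted p = 0.0171), under 2-fold, a call lost without replicate 2 of WT (adjusted p = 0.0514) or replicate 2 of KO (0.106) and in a fit of all 12 libraries (0.126). Gypc stood at a log2 fold change of -0.18 (edgeR adjusted p = 0.0823) and passed only without replicate 1 of WT (0.0409). Slc4a1 stood at -0.26 (edgeR adjusted p = 0.709), and at -1.14 (0.0152) without replicate 2 of KO, the library where it and Hbb-bs were highest. Early erythroid markers summed to 2586 to 2854 CPM in KO and 1859 to 2013 CPM in WT (6 of 7 passed as higher), and megakaryocyte markers to 324 to 360 CPM in KO and 550.5 to 638 CPM in WT (6 of the 8 tested passed as lower and 1 as higher). Neutrophil and monocyte markers summed to 30.5 to 68.8 CPM in KO and 85.5 to 208 CPM in WT (5 of 6 tested passed as lower). Mast cell and basophil markers were mixed. The 6 listed summed to 47.4 to 64.1 CPM in KO and 28.0 to 48.0 CPM in WT. The 2 tested, Cpa3 and Ms4a2, passed as higher in KO, of which DESeq2 passed 1. Fcer1a, Gzmb and Prss34, too low to be tested, went the other way. Fcer1a held 7.22, 3.14 and 0.948 CPM in WT and 0, 0.257 and 0 CPM in KO. Of the 4 lymphoid markers tested, 2 passed as lower (summed 12.6 to 15.4 CPM in KO, 18.7 to 30.0 CPM in WT). Their part in the values of the 3 genes was not tested. The sources do not say whether KO libraries were prepared and sequenced together with those of the other groups. Such a batch cannot be told apart from the genotype here, nor from genotype and sort where KO is set against P2- or P2+.

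KO and P2- PreMegEs, which share no library, had none of the 8 genes past edgeR's adjusted threshold, where 1.61% of all 12588 genes passed and 0.508% were changed. DESeq2 and edgeR's exact test also called 0 of the 8, and 1, Gypc, had an unadjusted p under 0.05 (0.0205). The intervals say how large a difference these libraries leave room for. The log2 fold change of KO over P2- was 0.05 (95% interval -0.22 to 0.32, edgeR adjusted p = 0.88) for Ank1, -0.35 (-0.98 to 0.29, adjusted p = 0.609) for Rhag and -0.20 (-0.63 to 0.22, adjusted p = 0.661) for Rhd. For Slc4a1 the interval ran from -1.36 to 0.92. Megakaryocyte markers did differ between the same libraries, with 7 of the 8 tested higher in KO (324 to 360 CPM summed, against 121 to 174 CPM in P2-). The 2 mast cell and basophil markers tested also passed as higher (47.4 to 64.1 CPM summed, against 24.4 to 28.2 CPM). None of the 7 early erythroid or the 7 neutrophil and monocyte markers tested passed. The part of these markers' cells in the values was not tested.

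KO PreMegEs were also set against P2+. Ank1 was 12.4-fold, Rhag 6.79-fold and Rhd 21.3-fold higher in KO (edgeR adjusted p = 7.07e-06, 1.19e-06 and 1.26e-05), 3 changed genes of 8 against 11.4% of all 12807 genes changed and 3.03% changed as higher. Rhd was testable only through KO, and 2 were changed without it. The test was passed by 5 of the 8, against 37.1% of all genes. This comparison uses the same P2+ libraries as that of P2+ and P2-. Sptb (log2 fold change -0.75, edgeR adjusted p = 0.00878) and Gypc (-0.34, adjusted p = 0.0104) were lower in KO, under 2-fold. Epb4.2 stood at 0.50 (edgeR adjusted p = 0.334), and at 0.94 (0.0448) without replicate 2 of P2+. Slc4a1 stood at -0.73 with a 95% interval of -2.22 to 0.76 (edgeR adjusted p = 0.433). Over the alternative fits its log2 fold change ran from -1.61 to 0.29, so that its sign was not settled. Between the same libraries all 7 early erythroid markers passed as higher in KO (summed 2586 to 2854 CPM, against 1113 to 1232 CPM in P2+), and of the 8 megakaryocyte markers tested 7 passed as lower and 1 as higher (324 to 360.2 CPM summed, against 843 to 1280 CPM). The 3 mast cell and basophil markers tested passed as lower, as did 2 of the 6 neutrophil and monocyte markers and 1 of the 3 lymphoid markers tested. Their part in the values was not tested.

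**Figure D3:**
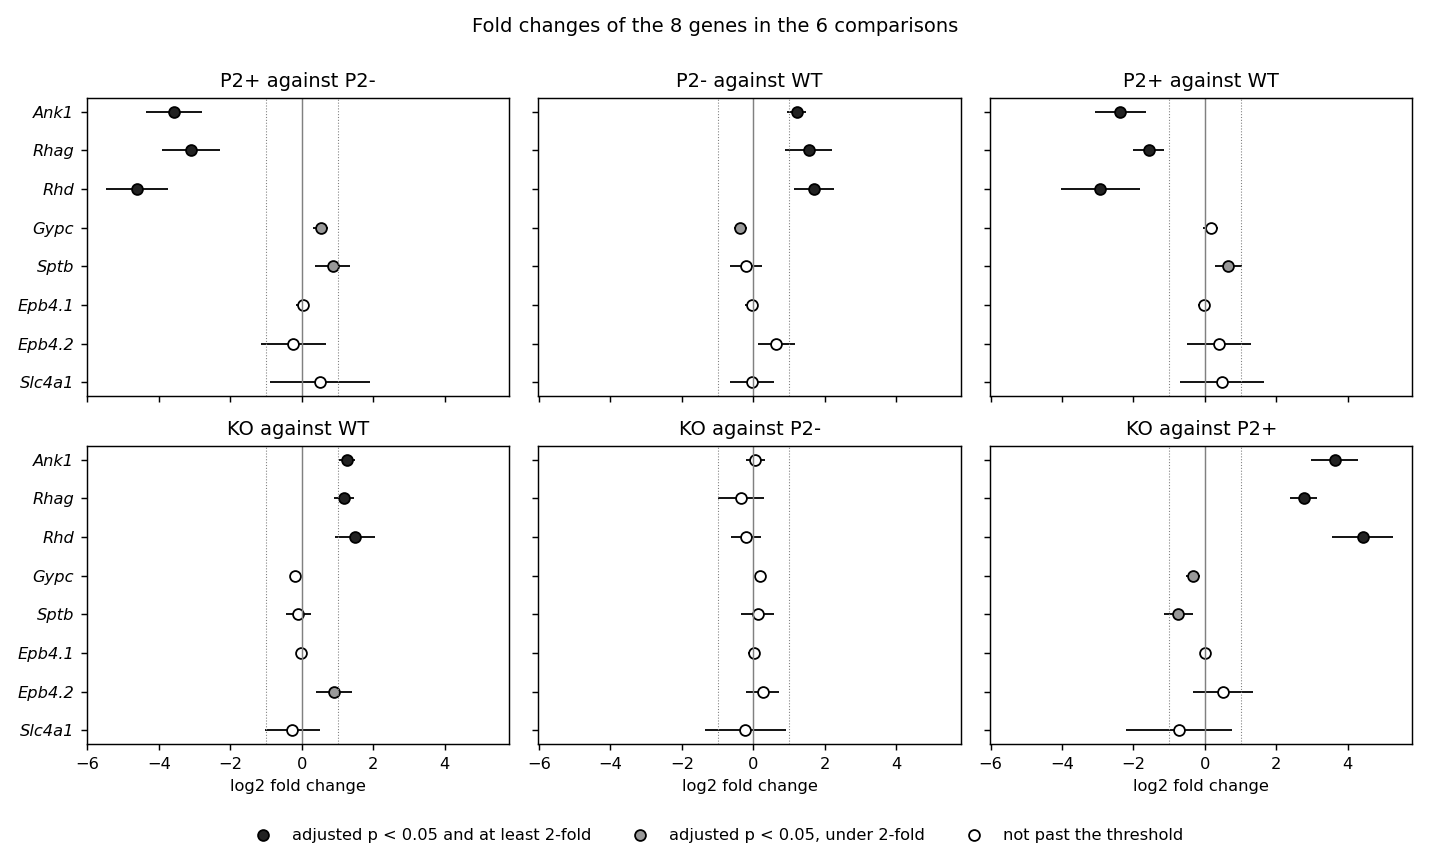
Log2 fold change (x axis) of the 8 genes in each of the 6 comparisons, with the 95% interval as a line. Filled points passed an adjusted p of 0.05 and 2-fold (dotted lines), grey points passed the adjusted p alone and open points did not pass. Ank1, Rhag and Rhd are filled in every panel but KO against P2-, where no gene passed, and Slc4a1 is open in all 6.

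Levels of different genes were compared per exonic length, as RPKM. In P2- the order of means was Gypc (61.7), Rhag (22.9), Epb4.1 (19.0), Ank1 (7.05), Rhd (5.17), Slc4a1 (3.96), Sptb (1.19) and Epb4.2 (1.11). Rhag and Epb4.1 did not differ there beyond their spread (SD 11.8 and 1.29, n = 3), nor did Rhd and Slc4a1 (SD 0.755 and 1.79) or Sptb and Epb4.2 (SD 0.314 and 0.101). In P2+ the order was Gypc (89.2), Epb4.1 (19.3), Slc4a1 (5.58), Rhag (2.64), Sptb (2.15), Epb4.2 (0.932), Ank1 (0.583) and Rhd (0.204). The libraries of Slc4a1 ran from 1.36 to 11.2 RPKM there, across the values of Rhag and Sptb. Rhag and Sptb (SD 0.500 and 0.423) overlapped, as did Epb4.2 and Ank1 (SD 0.519 and 0.340). The lowest library of Slc4a1 was also under the highest of Epb4.2 (1.41 RPKM), and the lowest of Ank1 (0.287 RPKM) under the highest of Rhd (0.305 RPKM). Ank1 went from above Sptb per length in P2- (7.05 against 1.19 RPKM) to below it in P2+ (0.583 against 2.15 RPKM).

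Partners of these proteins were read from a list of 36 other red cell membrane genes, of which 35 were tested between P2+ and P2-. There 19 passed as lower in P2+ and 8 as higher, against 17% and 20.1% of all genes. Of these, 8 of the lower and 3 of the higher were at least 2-fold, against 3.13% and 9.54% of all genes. The 3 of 35 changed as higher are near the share of all genes. Without Add2, which was testable only through P2-, 7 were changed as lower. The median log2 fold change of the list was -0.52, against -0.02 over all genes tested. Among those changed as lower were Ermap, an erythroid blood group protein (log2 fold change -5.31 ± 0.40 SE, edgeR adjusted p = 2.05e-05), Add2, the beta adducin that caps actin in the skeleton (-4.68 ± 0.47, adjusted p = 9.9e-05), and Kel, the Kell endopeptidase (-3.58 ± 0.42, adjusted p = 0.000247). Changed as higher were Tmod1, the tropomodulin that caps the other end of actin (2.84 ± 0.31, adjusted p = 0.000157), the glucose transporter Slc2a1 (1.64, adjusted p = 0.00232) and the calcium pump Atp2b4 (1.21, adjusted p = 6.37e-06).

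Add2 held 19.9, 12.2 and 23.2 CPM in P2- and 0.837, 1.11 and 0.152 CPM in P2+. Like Rhd, it reached the minimum level only through the other group wherever P2+ was compared. Its sister Add1, which is widely made, held 511, 451 and 492 CPM in P2- and 282, 281 and 287 CPM in P2+ (log2 fold change -0.77, edgeR adjusted p = 7.67e-05). The third adducin, Add3, went the other way, from 163, 144 and 146 CPM to 229, 209 and 217 CPM (0.54 ± 0.08 SE, edgeR adjusted p = 0.000827), and was named after its value was seen. The groups overlapped for none of the adducins. Kel stood at 36.1, 41.8 and 38.8 CPM in P2- and at 2.18, 6.04 and 1.37 CPM in P2+, and Xk, the membrane protein bound to it, at 259, 211 and 248 CPM against 143, 103 and 131 CPM (log2 fold change -0.93, edgeR adjusted p = 0.000651). Tmod1 went the other way, from 1.51, 1.91 and 3.58 CPM to 14.0, 18.9 and 17.8 CPM.

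Icam4, an Rh-associated adhesion protein, was lower in P2+ (-0.53, edgeR adjusted p = 0.0102), though an antisense gene overlaps it. Cd47 (0.03, edgeR adjusted p = 0.834), which also rides with the Rh complex, Mpp1 (0.07, adjusted p = 0.77), which binds glycophorin C, and Dmtn (-0.52, adjusted p = 0.567), which bundles actin, did not pass.

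The same partner list was read against WT in each group. In P2- 10 of 35 passed as higher (6.85% of all genes) and 6 as lower (9.6%), with Ermap changed as higher (log2 fold change 1.08, edgeR adjusted p = 0.000478) and Tmod1 as lower (-1.92, adjusted p = 0.00289). Of the direct binders, Add2 (0.77, edgeR adjusted p = 0.0478) and Xk (0.61, adjusted p = 0.00365) were among those higher in P2-, while Add3, named after its values were seen, was lower (-0.43, adjusted p = 0.0049). In P2+ 15 passed as lower (7.07% of all genes), Ermap (-4.24), Add2 (-3.93) and Kel (-3.20) among them, and 5 as higher (9.45%). In KO 12 passed as higher (6.18% of all genes) and 8 as lower (8.76%), and Tmod1 alone was past 2-fold (-1.16, edgeR adjusted p = 0.00136). Of the direct binders, Xk (0.45, edgeR adjusted p = 0.000711) and Add1 (0.23, adjusted p = 0.0193) were among those higher in KO, while Add3, named after its values were seen, was lower (-0.45, adjusted p = 0.000171). Between KO and P2- Atp2b1 was the 1 gene of the list that passed (0.55, edgeR adjusted p = 0.00958), a gene named after its value was seen. Between KO and P2+ 19 passed as higher in KO (16.7% of all genes), Ermap (5.23), Add2 (4.39), Kel (3.45) and Aqp1 (2.55) by the most, and 8 as lower (20.3%), of which Tmod1 (-2.07), Slc2a1 (-1.46) and Atp2b4 (-1.02) were past 2-fold.

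Paralogues of the 8 genes, members of the same protein families, were read from a second list. Of 27 such genes 13 reached the minimum level between P2+ and P2-, and 8 of these were changed, all as higher (9.54% of all genes), with a median log2 fold change of 1.53 against -0.02 over all genes. Of the 13, 3 (Ank3, Slc4a8 and Sptbn4) were at 1 CPM or more in all P2+ libraries and in at most 1 P2- library, so that they were tested only because of P2+, which by itself favours a rise. Slc4a8 was among the 8 changed, and the other 7 were not of this kind. The non-erythroid spectrins Sptan1 and Sptbn1 rose 5.40-fold (log2 fold change 2.43 ± 0.11 SE, edgeR adjusted p = 2.36e-06) and 3.96-fold (1.98 ± 0.08, adjusted p = 1.54e-06). Sptan1 held 25.2, 33.3 and 27.5 CPM in P2- and 149, 162 and 150.4 CPM in P2+, and Sptbn1 96.8, 91.6 and 99.2 CPM against 391, 355 and 388 CPM. Every P2+ library of both was above every P2- library. Per length the non-erythroid beta chain exceeded Sptb in all groups. The means were 21.6 against 2.15 RPKM in P2+, 5.48 against 1.19 in P2-, 11.8 against 1.38 in WT and 9.27 against 1.29 in KO. Epb4.1l4b, a relative of Epb4.1, rose by 2.28 (edgeR adjusted p = 8.43e-06), and the transglutaminases Tgm1 and Tgm2, the enzyme family from which Epb4.2 descends, by 2.04 (adjusted p = 0.00135) and 1.99 (adjusted p = 1.64e-05). Slc4a7, a bicarbonate transporter, passed as lower (-0.29, edgeR adjusted p = 0.0119). Sptbn1 here and Slc4a7 were named after their values were seen.

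In P2- against WT 5 of 12 tested paralogues passed as lower (9.6% of all genes), and Epb4.1l4b (log2 fold change -1.49, edgeR adjusted p = 0.000191), Sptan1 (-1.39, adjusted p = 5.97e-05) and Sptbn1 (-1.10, adjusted p = 2e-05) were changed. In P2+ against WT 7 of 13 passed as higher (9.45% of all genes), Tgm2 (1.31), Epb4.1l1 (1.22), Tgm1 (1.05) and Sptan1 (1.04) past 2-fold. In KO against WT 4 of 12 passed as lower (8.76% of all genes), each under 2-fold, Sptan1 at -0.41 and Sptbn1 at -0.36. KO and P2- differed in these spectrins: Sptan1 was 0.98 higher on the log2 scale in KO (edgeR adjusted p = 0.00371) and Sptbn1 0.75 (adjusted p = 0.00153), the 2 that passed of 10 tested (1.33% of all genes passed as higher). KO libraries held 55.7, 60.5 and 54.2 CPM of Sptan1, above P2- and below WT (72.5, 83.0 and 70.9 CPM). Against P2+, 9 of 13 were changed as lower in KO (8.32% of all genes), among them Tgm1 (-1.60, edgeR adjusted p = 0.00269), Epb4.1l4b (-1.54, adjusted p = 1.25e-05) and Tgm2 (-1.47, adjusted p = 3.77e-06). Ank3, the ankyrin of neurons and epithelia, had the largest fitted value (-2.44, edgeR adjusted p = 0.0197), but it was near the counting limit in KO (0.436, 0.257 and 0 CPM, against 1.76, 1.04 and 1.14 CPM in P2+). It and 2 others of the 13 reached the minimum level only through P2+, and 7 of the 9 changed genes did not depend on this.

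**Figure D4:**
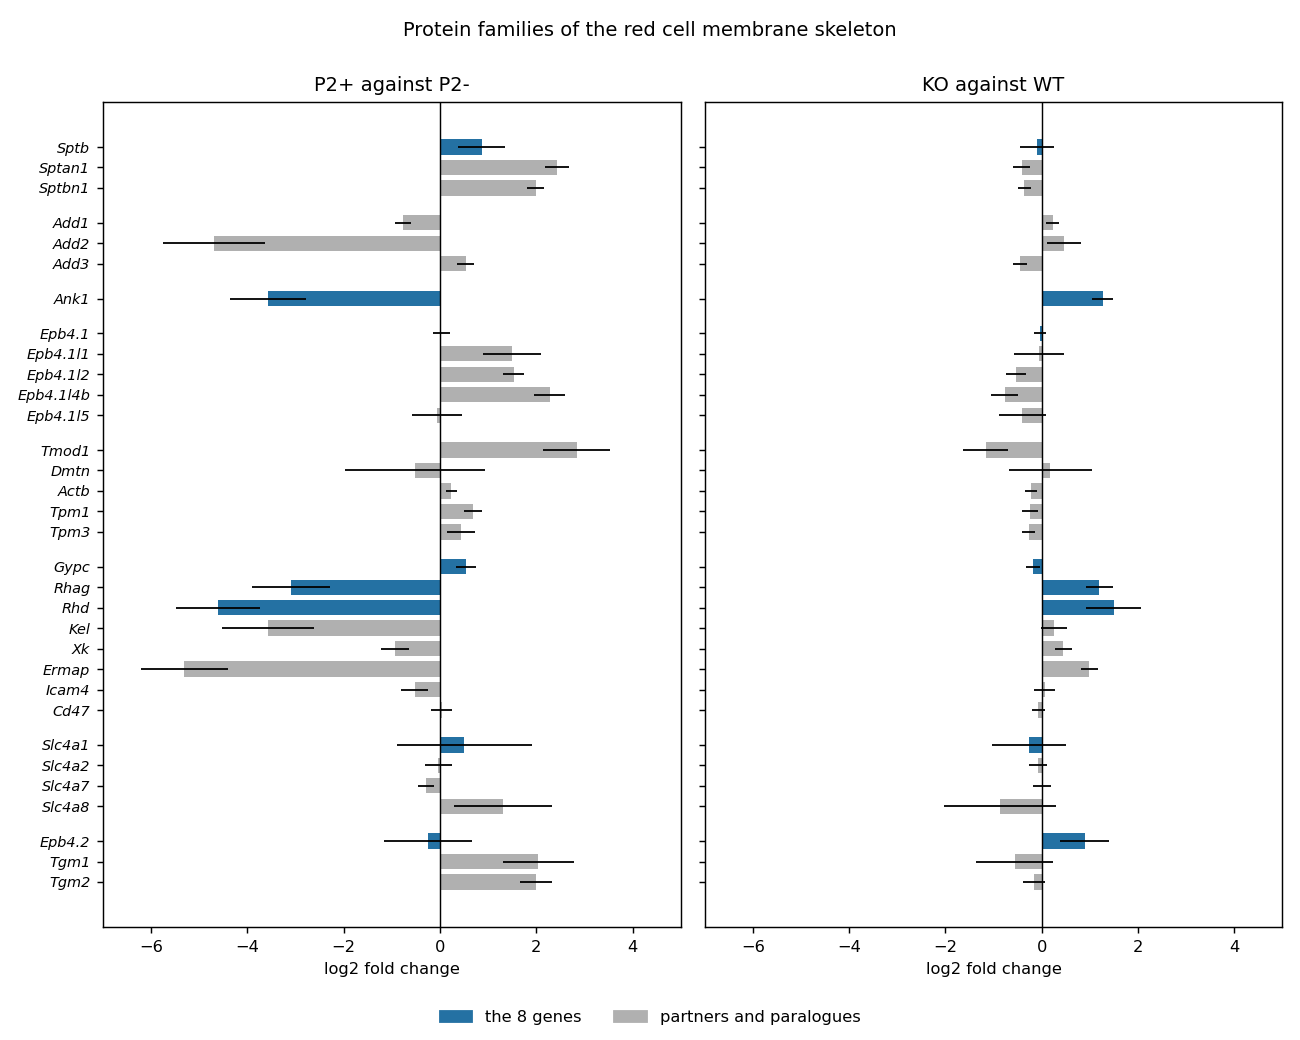
Log2 fold change (x axis) of the 8 genes (blue) and of partners and paralogues (grey), grouped by protein family, in P2+ against P2- and in KO against WT, with the 95% interval as a line. In P2+ the non-erythroid spectrins and Epb4.1l1, Epb4.1l2 and Epb4.1l4b lie to the right and Ank1, Add2, Kel, Ermap, Rhag and Rhd to the left, while in KO against WT Ank1, Rhag and Rhd lie to the right and Tmod1 to the left.

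The likeness of other genes to the 8 was measured as Pearson's r of log2 CPM over the 12 libraries, as a description, among 9922 genes outside the lists with at least 10 CPM in the highest group. With the mean of the 8 standardized genes r was at most 0.86, for Gm6829, followed by Phrf1 (0.84), Mfsd11 (0.83), Zfp236 (0.82) and Dlg1 (0.82). That mean averages genes that moved in opposite directions. Gene by gene, a measure added after the values were seen, Slc38a5, an amino acid transporter, was the most like Ank1 (r = 0.99) and Rhd (r = 0.99). Between members r was 0.99 for Ank1 and Rhd and -0.84 for Ank1 and Gypc, and the libraries of a group share their sort and genotype.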

How the data were processed

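RNA-Seq of PreMegEs sorted from mouse bone marrow was read from one table of integer counts per gene for 12 libraries. These were 4 groups of 3, each library of 3 pooled mice, which for KO is taken from the study's general methods. Per the labels and the study's methods, the authors made poly(A) libraries with a strand-specific kit, aligned paired reads to GRCm38 with Bowtie2 and counted Ensembl genes with featureCounts, and the deposited counts are not normalized. Strand setting and treatment of multiply aligned reads are not given in the sources used here. Groups were taken from the labels.

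Pairs of groups were compared with edgeR 4.0.16 (R 4.3.3): a minimum of 1 CPM in 3 or more of the 6 libraries, TMM scaling, quasi-likelihood F-test on the group, Benjamini-Hochberg adjustment over all genes tested. SE is the log2 fold change divided by the square root of F. Positions and exonic lengths came from GENCODE vM21 (GRCm38), in which 40254 of 41128 genes were found. DESeq2 1.42.0, the exact test, other scaling and filters, a replicate block, a fit of all 12 libraries and leaving out each library were alternatives. The method was also run on simulated data, with the spread of the WT libraries and without pairing. This leaves out the wider spread that replicate 2 gives P2- and P2+. The outcome is not reported here, and no result rests on it. The deviations of P2+ and P2- libraries with the same number correlated at r = 0.40, 0.59 and 0.43 over genes, so the numbers pair these groups. In no other pair of groups did every number correlate above 0.1.

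The 8 genes and the gene lists were chosen with earlier results of these data known. Of the lists, the text names in each comparison up to 4 changed genes with the largest fold in each direction and the direct binders of the 8 gene products. Xk, described here as bound to Kel, was listed among these binders. Some genes under this rule are not reported here. Mast cell, lymphoid and neutrophil markers were listed as possible admixture, and their summed levels were 84.3 to 137, 23.4 to 39.9 and 112.5 to 262 CPM in P2+ against 24.4 to 28.2, 8.77 to 11.3 and 26.3 to 60.8 CPM in P2-. The study's sort left out cells bearing surface markers of T cells, B cells and granulocytes, and whether any remained was not tested. Genes of the PreMegE gate summed to 1859 to 2353 CPM over all libraries. Most of this sum was Kit and Gata2, and it hides differences of single genes. Of the 6, 2 passed as higher and 2 as lower between KO and WT (6.18% and 8.76% of all genes). Between KO and P2+ 2 passed as higher and 1 as lower. A limit of 3 counts covers counting error only.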

Additional observations from a re-analysis of the deposited data

How the results depend on the processing

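Over the 8 genes, 6 comparisons and all alternatives, 562 of 574 fold changes kept their side of an adjusted p of 0.05, 8 lost it and 4 gained it, and none of those past the threshold changed sign. The calls of Ank1, Rhag and Rhd held in every alternative that gave a value. Rhd gave none where a library of the group other than P2+ was left out, since 3 libraries at 1 CPM were then not to be had. Calls lost or gained were those of Sptb, Epb4.2, Gypc and Slc4a1, given with their comparisons except for 1 of Slc4a1 under the block. Without a minimum fold, 4762 genes passed between P2+ and P2-, 2138 between P2+ and WT, 2101 between P2- and WT, 1910 between KO and WT, 203 between KO and P2- and 4748 between KO and P2+, and 5 of the 8 genes passed both between P2+ and P2- and between KO and P2+, against the 3 that were changed. Between KO and P2-, 64 genes were changed, and 158 without a filter on low counts, 108 with DESeq2, 138 with the exact test, and from 23 to 97 when 1 library was left out (23 without replicate 2 of KO, 27 without replicate 1 of KO, 36 without replicate 3 of KO, 97 without replicate 2 of P2-). With 2 libraries left in a group, the spread was still estimated over all genes.

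With the replicate number as a block, the paired fit of P2+ and P2- changed 3 of the 8 genes, as without it, and altered none of their calls. In the other comparisons the numbers are only names. There the block brought Slc4a1 past the threshold between KO and P2+ (log2 fold change -0.65, adjusted p = 0.00846) and changed no other call of the 8 genes. Depth limited Rhd in P2+, where it was counted at most 7 times per library.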
